A study of Mus musculus with 15 samples.

Results

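The TNF receptor family and the BCL2 family, with the caspases and their inhibitors, were examined in mouse cumulus cells at 3 steps of oocyte developmental competence acquisition. Members were the genes of the deposited expression table whose symbols start with Tnfrsf or Tnfsf, are Bcl2l or Casp followed by digits, or belong to a named set of apoptosis genes (Bcl2, Mcl1, Bax, Bak1, Bad, Bid, Bik, Bbc3, Pmaip1, Bmf, Hrk, Fas, Fasl, Cflar, Xiap, Birc2 and Birc3), and each gene was read from its probe with the highest mean. A total of 41 genes of the 15059 named genes in that table met this rule: 5 TNF ligands, 11 TNF receptors, 14 BCL2 family genes, 7 caspases and 4 inhibitors. Of the 65 genes on the array that carry such names, 24 were not in the table. Among these 24, 13 were not well above background on any array and the other 11 were above it in at most 3 of the 5 arrays of a stage. They include Fasl, Pmaip1, Hrk, Bik, Casp1 and Casp12.

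Cumulus cells are the granulosa cells that surround the oocyte and leave the follicle with it at ovulation. All samples were pools from B6CBAF1/J mice, with 5 arrays a stage. NC1 cells came from unexpanded complexes punctured from the ovaries of juvenile mice aged 3 weeks, with prophase I oocytes that are developmentally incompetent. C1 cells came in the same way from adults aged 8 weeks, with competent prophase I oocytes. C2 cells came from expanded complexes collected in the oviduct of superovulated adults aged 8 weeks, with metaphase II oocytes, and were freed with hyaluronidase at 300 µg/ml, whereas the unexpanded complexes were stripped by pipetting. NC1 and C1 differ in age as well as competence, and C1 and C2 differ in hormone treatment, site and enzyme as well as meiotic stage, so these cannot be told apart. Nothing in the labels says that the pools of a stage share no animal, and p-values measure the spread between these pools.

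TNF family ligands are trimers that cluster receptors at the cell surface. Receptors with an intracellular death domain recruit the adaptor FADD and caspase-8, whereas other receptors bind TRAF proteins and turn on NF-κB. TRAIL, the product of Tnfsf10, signals in the mouse through the death domain receptor encoded by Tnfrsf10b, and the products of Tnfrsf22 and Tnfrsf23 bind TRAIL without a working death domain and are called decoys. Inside the cell, BH3-only proteins are sensors that either block the survival proteins of the BCL2 family or directly activate BAX and BAK, which open the mitochondrial outer membrane. Cytochrome c then assembles the caspase-9 platform, and the caspases below it dismantle the cell unless XIAP holds them back. In the ovary these pathways are best known from follicular atresia, in which granulosa cells die by apoptosis.

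The promoters of 4 members that the results turn on are shown: the decoy receptor Tnfrsf23 and the BH3-only genes Bmf and Bbc3, which rose at C2, and the survival gene Bcl2, which fell. Each line holds the 250 bases before the transcription start, 5′ to 3′ on the strand of the gene, from RefSeq on GRCm38.p6. The windows are chr7:143685876-143686125 (minus strand) for Tnfrsf23, chr2:118549687-118549936 (minus strand) for Bmf, chr7:16309333-16309582 (plus strand) for Bbc3 and chr1:106714291-106714540 (minus strand) for Bcl2. For Bmf and Bbc3, each with 3 listed starts, the most upstream was taken. Capitals mark matches to the motifs searched.
Tnfrsf23: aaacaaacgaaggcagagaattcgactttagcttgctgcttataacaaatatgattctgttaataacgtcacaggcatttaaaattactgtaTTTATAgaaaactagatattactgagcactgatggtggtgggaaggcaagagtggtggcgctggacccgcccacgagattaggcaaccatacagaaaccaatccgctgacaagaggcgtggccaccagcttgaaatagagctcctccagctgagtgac
Bmf: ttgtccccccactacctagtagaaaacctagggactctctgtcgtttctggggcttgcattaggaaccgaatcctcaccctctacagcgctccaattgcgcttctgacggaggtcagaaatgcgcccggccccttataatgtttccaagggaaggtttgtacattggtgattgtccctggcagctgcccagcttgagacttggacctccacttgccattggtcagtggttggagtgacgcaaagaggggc
Bbc3: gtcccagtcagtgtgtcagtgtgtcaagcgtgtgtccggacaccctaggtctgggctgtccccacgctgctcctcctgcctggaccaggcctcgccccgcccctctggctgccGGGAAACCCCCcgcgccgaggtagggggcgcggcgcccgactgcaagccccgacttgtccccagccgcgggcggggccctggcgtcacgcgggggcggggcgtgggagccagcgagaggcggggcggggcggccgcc
Bcl2: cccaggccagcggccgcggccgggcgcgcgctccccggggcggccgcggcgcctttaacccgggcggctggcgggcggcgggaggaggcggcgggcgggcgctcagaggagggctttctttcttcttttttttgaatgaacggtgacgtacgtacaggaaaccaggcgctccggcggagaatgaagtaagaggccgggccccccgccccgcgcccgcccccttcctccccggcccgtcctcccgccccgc

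The motifs were searched on both strands: the NF-κB consensus, AP-1 (TGANTCA), the cAMP response element (TGACGTCA), the forkhead site (TGTTTAC), the E-box (CACGTG) and the TATA box (TATAAA). In the Bbc3 window the capitals are 2 overlapping matches to the NF-κB consensus, 137 to 127 bases before the start, a motif held by 7.25% of the 32851 promoters searched. In the Tnfrsf23 window they are the TATA letters on the reverse strand, 158 to 153 bases before the start, and 12.4% of promoters hold these. Bmf and Bcl2 held none of the motifs in these windows. Among the 35 members with a promoter in the table, with 50 starts, the NF-κB letters lay before 6 starts of Bbc3, Bcl2l1, Casp4, Tnfrsf25 and Tnfrsf9, and the forkhead letters, at 3.17% of all promoters, before 4 starts of Bbc3, Bcl2l11 and Casp4. The windows differ in composition. The Bcl2 window holds 36 CpG sites and the Bbc3 window 27, whereas those of Tnfrsf23 and Bmf hold 8 each, and the median over all promoters was 6.

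Levels are given as log2 intensity over the array's median, so that 0 is the median probe of that array. They can be compared between arrays for 1 probe, not between probes. Valid probes are those that the scanner software marked as well above background on 4 or more of the 5 arrays of every stage, and 35 of the 41 members had such a probe. A gene was called changed at a limma adjusted p under 0.01 over 17324 valid probes. Between 18368 and 24496 gene probes were well above background on an array, and C1 replicate 4 had the most. It also stood apart in ovulatory genes: Tnfaip6 read 2.70 against -3.77 to -2.90 in the other C1 arrays, and Ptx3 0.81 against -5.60 to -4.30. Ptgs2, Areg, Ereg, Btc and Runx1 were also highest there among the C1 arrays, whereas Has2, Pgr and Star lay within the range of the others. Among members, Tnfrsf12a, Tnfrsf23 and Tnfsf9, which rose at C2, read highest in this C1 array. So did Bcl2l2 and Cflar, which also rose, Bcl2, Bid and Casp2, which fell, and Tnfrsf10b, Tnfrsf9, Bcl2l12 and Bcl2l13, which were not called. Members whose call moved without C1 replicate 4 are given with that value, and the counts of the pathway lists that moved are given with those lists. C2 replicates 4 and 5 also stood apart, among others in oocyte genes. Gdf9, an oocyte growth factor, read -1.69 and -1.42 there against 2.13 to 3.06 in the other C2 arrays, and Oosp1 -6.96 and -6.49 against -0.06 to 1.22. Among 10 oocyte genes, 8 were lower in both than in each of the other 3. Inha read 4.59 in both against 3.67 to 3.83, and Ptx3 2.71 and 2.62 against 0.53 to 0.84. Among members, Bbc3, Bmf, Bax, Casp9, Tnfsf12, Tnfrsf9 and Tnfrsf11a were lower in both than in each of the other 3. Higher in both were Tnfrsf23, Tnfsf9, Tnfrsf1a, Tnfrsf19, Bcl2, Mcl1, Bcl2l11, Casp6 and Casp8. In the stages as labelled, 10 of 10 cumulus and granulosa markers were detected, and 9 of them fell from C1 to C2.

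From juvenile to adult prophase I cells, 1 of the 35 members was called, or 2.86%, where 2.52% of all valid probes were. It was Tnfrsf12a, the receptor of the ligand TWEAK. For Tnfrsf12a, the 5 NC1 arrays read 1.05, 1.24, 0.92, 1.19 and 1.25, the 5 C1 arrays 2.62, 1.77, 2.11, 2.76 and 1.83, and the 5 C2 arrays 3.72, 4.11, 4.12, 3.67 and 3.99. Every C1 array lay above every NC1 array, and every C2 array above every C1 array. The increase from NC1 to C1 was 1.09 ± 0.18 on the log2 scale (SE, adjusted p = 0.00119), or 2.13-fold, and it was 0.95 (adjusted p = 0.00221) without C1 replicate 4. The call was lost under 3 other scalings, with an adjusted p of 0.0147 by the spike-in probes and of 0.032 by the median over all gene probes. From C1 to C2 the gene rose by a further 1.70 ± 0.18 (adjusted p = 4.97e-07). No other member was called in both steps. Outside the rule, the membrane ligand gene Ltb also rose from NC1 to C1, by 2.13 on the log2 scale (adjusted p = 0.000451), and did not pass the test from C1 to C2 (-0.26).

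The other 34 members differed between NC1 and C1 by -0.29 to 0.56 on the log2 scale. Non-overlapping groups were found for Tnfrsf12a, Tnfrsf23 and Casp2, that is 3 of 35 members against 5.97% of all valid probes. Hemoglobin RNA fell between these stages, 3 of 4 valid red blood cell markers being lower at C1. Of 6 valid leukocyte markers 1 was called, Cd52, which rose by 1.20 (limma, adjusted p = 0.00366), and 5 were not. The summed level of the red blood cell list was 18.9 to 177 times the array's median at NC1 and 2.76 to 11.0 times at C1. NC1 replicates 1 and 2 stood apart, Hbb-b1 reading 5.01 and 5.62 there against 2.52 to 2.98 in the other NC1 arrays. The stroma marker Col1a1 (3.82 and 2.68 against 1.40 to 1.68) and the oocyte marker Zp2 (-0.42 and -0.89 against -3.06 to -2.03) were also higher there. The part of other cell types in the change of Tnfrsf12a was not tested. In pooled cells, fewer cells of a type and less RNA per cell cannot be told apart.

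From C1 to C2, 18 of the 35 members were called (51.4%), beside 47.6% of all valid probes. Of these, 14 rose and 4 fell, where 25.4% of all valid probes rose and 22.2% fell. The median change of the members was 0.24 and that of all valid probes 0.02. At least 2-fold changes were found for 8 members that rose and 2 that fell, beside 10.8% and 10.5% of all valid probes, or 10 members in all beside 21.3%. The groups did not overlap for 18 members, namely 17 of those called and Birc2, and for 43.9% of all valid probes. Without C2 replicates 4 and 5 the same 18 members were called, 14 higher and 4 lower, beside 41.6% of all valid probes. The 18 called members changed in the same direction on each of the 4 slides, which for the 17 without overlap follows from their groups. With the spike-in scaling 10 members were called, the calls of Bad, Bak1, Cflar, Xiap, Casp2, Casp9, Tnfsf12 and Tnfrsf1b being lost, beside 25.4% of all valid probes. With the scaling of the deposited table, by which the median probe rises by 0.33, 16 members rose and 2 fell, beside 30.6% and 10.4% of all valid probes.

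Markers of other cell types moved between C1 and C2. All 5 valid theca and stroma markers fell, with a median of -4.78, and the summed level of that list went from 12.1 to 19.1 times the array's median at C1 to 0.527 to 0.773 times at C2. The oocyte list went from 9.89 to 26.8 times at C1 to 0.665 to 11.7 times at C2, where Gdf9 in replicates 1 to 3 lay within its C1 range of 2.03 to 3.58 and in replicates 4 and 5 below it, and Zp2 was not above background on any C2 array. Leukocyte markers went from 4.68 to 5.73 times at C1 to 6.53 to 9.32 times at C2, Cd52 (3.01) and Cd14 (1.22) being called higher of 6 valid markers. Ptprc, which marks all leukocytes, was above background on 1 NC1, 1 C1 and 4 C2 arrays, and Cd79a on none. The oviduct epithelium list went from 4.06 to 7.20 times to 16.0 to 20.7 times. Krt18, the largest term of this sum on every C2 array, was called higher (1.77), and 2 others lower, of 5 valid markers. Ovgp1 was not called, at -3.66 to 0.97 on the C1 arrays and -0.33 to 3.06 on the C2 arrays. Muc1 was not above background on any array, and Foxj1 was on 3, 1 and 3 arrays of NC1, C1 and C2. Of the 6 endothelial markers 2 were valid: Cdh5 rose by 1.5 and Kdr differed by 0.09. Emcn and Vwf, above background on 4 and 3 C1 arrays and on 0 and 1 C2 arrays, had lower means at C2 with groups that did not overlap, at -3.56 and -6.11 for Emcn and -3.97 and -5.02 for Vwf, and Tek was not above background on any array. The part of these cells in the changes of the members was not tested.

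**Figure D1:**
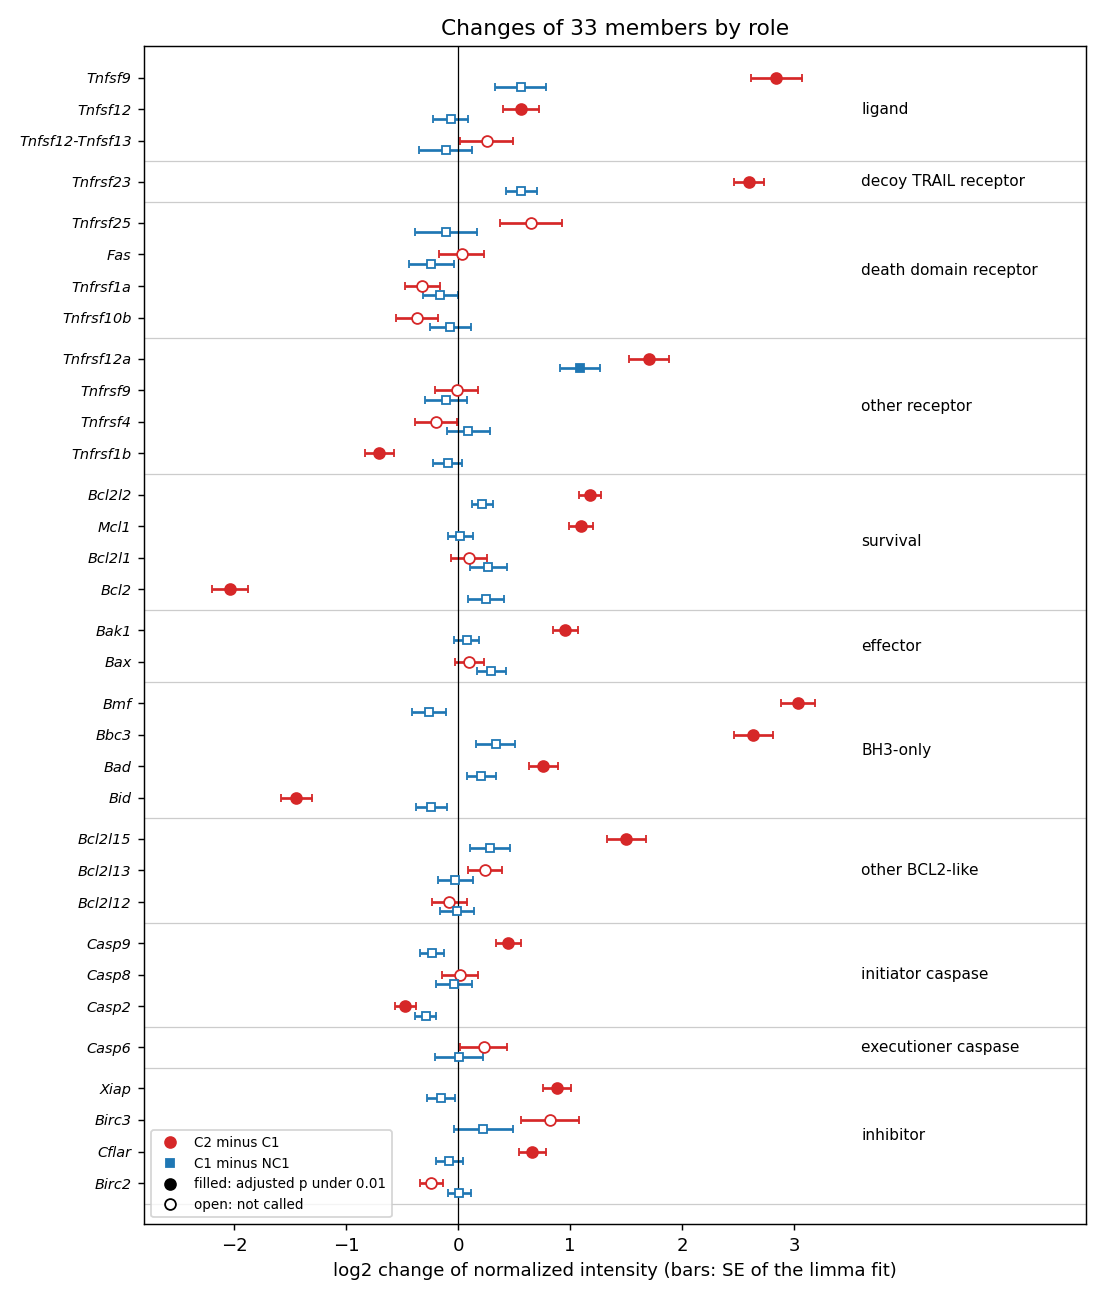
Log2 change of normalized intensity of 33 of the 35 valid members, grouped by role, from C1 to C2 (red circles) and from NC1 to C1 (blue squares), 5 arrays a stage. Bars are the SE of the limma fit and filled symbols are called at an adjusted p under 0.01. The filled circles run from -2.04 for Bcl2 to 3.03 for Bmf, no death domain receptor has a filled circle, and the only filled square is Tnfrsf12a.

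Among the TRAIL genes, the decoy receptor gene Tnfrsf23 rose at C2 while Tnfrsf10b did not pass the test, and the ligand gene Tnfsf10 was well above background on 1 of the 5 C2 arrays. Tnfrsf23 measured -3.96, -4.11, -3.97, -3.83 and -4.07 at NC1, -3.55, -3.46, -3.40, -3.08 and -3.64 at C1 and -1.17, -1.03, -0.85, -0.54 and -0.54 at C2. The 3 stages did not overlap. Tnfrsf23 rose by 2.60 ± 0.14 from C1 to C2 (adjusted p = 1.84e-10), or 6.05-fold, and the difference of 0.56 from NC1 to C1 did not pass the threshold (adjusted p = 0.0215). Without C2 replicates 4 and 5, which read highest, the rise was 2.41 (adjusted p = 4.19e-09). These values come from 1 probe. A second probe with the same accession was not well above background on any array, at -5.02 to -8.68 in 14 arrays and -3.80 in C1 replicate 3. At C2 it read -6.40 to -5.07. Which of the 2 probes reads the transcript could not be settled, so the rise is that of the brighter probe.

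At NC1 Tnfrsf10b stood at 0.39, 0.06, 0.96, 1.05 and 0.51, at C1 at 0.56, 0.45, 0.36, 0.95 and 0.31, and at C2 at 0.54, -0.03, 0.19, -0.07 and 0.17. The death domain receptor groups overlapped, with a change of -0.37 ± 0.19 from C1 to C2 (adjusted p = 0.101). Within each array, Tnfrsf23 minus Tnfrsf10b had a mean of -4.58 ± 0.33 (SD, n = 5) in NC1 cells, of -3.95 ± 0.13 in C1 cells and of -0.99 ± 0.47 in C2 cells. A constant added to all log2 values of an array does not move this quantity. It rose by 2.96 from C1 to C2 and by 0.63 from NC1 to C1, each with p = 0.00794 in a two-sided exact permutation test, the smallest that 5 arrays against 5 can give, and an adjusted p of 0.0127 over 8 tests. With normexp background correction the rise from NC1 to C1 was 0.48 and missed the threshold (adjusted p = 0.159 over the 8 exact tests).

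The log2 levels of Tnfsf10 were -0.15, -0.75, 0.13, 0.11 and -0.04 at NC1, -1.84, -0.87, -1.10, -1.11 and -0.85 at C1, and -4.60, -4.96, -6.03, -4.81 and -5.38 at C2. The groups did not overlap, and at C2 the TRAIL probe was well above background on 1 of 5 arrays, so that it was outside the valid set and only a bound is given. Its C1 mean was at least 11.0-fold above the C2 bound (at least 4.92-fold with normexp) and its NC1 mean at least 22.3-fold (9.1-fold with normexp). Each bound divides the NC1 or C1 mean by the C2 mean of the dimmest signal that still counted as above background on the array, or of the probe's own signal where that was higher. In a fit over the 20844 probes well above background in at least 1 stage, the difference of -1.02 from NC1 to C1 missed the threshold (adjusted p = 0.0324). Of the other receptors of this kind, Tnfrsf22 was above background on 3 NC1 arrays, 1 C1 array and 2 C2 arrays with its brighter probe, which read -3.84 to -6.42. Tnfrsf26 and Tnfrsf11b, whose product is a soluble decoy for both RANKL and TRAIL, were not above background on any array, at -5.94 to -8.74 and -5.61 to -8.26. Tnfrsf26, Tnfrsf22 and Tnfrsf23 are neighbours on chromosome 7 in the RefSeq gene order.

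**Figure D2:**
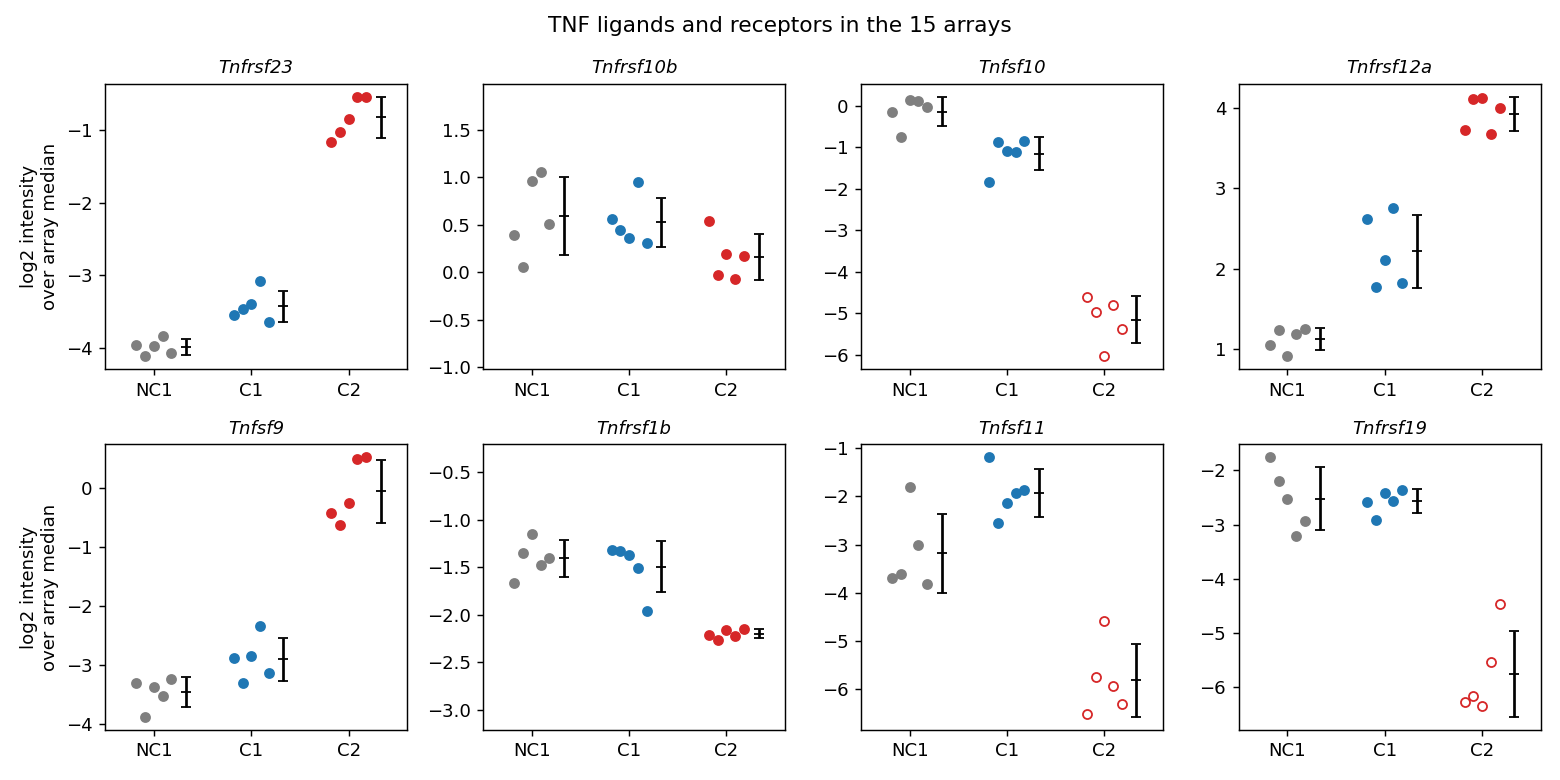
Log2 intensity over the array median (y axis) of 8 TNF family genes in each of the 15 arrays, by stage (x axis), with the mean and SD beside the points. Open points mark stages in which fewer than 4 of 5 arrays were well above background. Tnfrsf23, Tnfrsf12a and Tnfsf9 are highest at C2 and Tnfsf10, Tnfsf11 and Tnfrsf19 lowest, while the stages overlap for Tnfrsf10b.

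Of the 3 valid ligand genes, 2 rose from C1 to C2, beside 25.4% of all valid probes. Across replicates, Tnfsf9 gave -3.30, -3.87, -3.37, -3.52 and -3.23 at NC1, -2.87, -3.30, -2.85, -2.34 and -3.13 at C1 and -0.42, -0.63, -0.25, 0.49 and 0.52 at C2. Every C2 array lay above every other array. Within C2, replicates 4 and 5 read highest, and without them the rise was 2.47 (adjusted p = 1.67e-07). Tnfsf9 encodes the ligand of 4-1BB, a costimulatory receptor of T cells, and rose by 2.84 ± 0.23 (adjusted p = 2.26e-08), or 7.17-fold. In the same comparison 2 of 6 valid leukocyte markers were called higher, Cd52 (3.01) and Cd14 (1.22), and 4 were not called. The part of leukocytes in the rise of Tnfsf9 was not tested. The gene of that receptor, Tnfrsf9, changed by -0.01 from C1 to C2 on the chosen probe (adjusted p = 0.962). Its dimmer probe disagreed between NC1 and C1: it was above background on 0 NC1, 4 C1 and 5 C2 arrays, at a mean of -6.86, -3.52 and -3.84.

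The arrays placed Tnfsf12 at -2.97, -3.28, -3.30, -2.91 and -2.64 in NC1 cells, -3.20, -3.19, -2.77, -3.27 and -3.01 in C1 cells and -2.60, -2.55, -2.03, -2.63 and -2.81 in C2 cells. Tnfsf12 encodes TWEAK, the ligand of the Tnfrsf12a receptor. Its groups overlapped, and the change of 0.56 ± 0.16 (adjusted p = 0.00592) was lost in 11 of 32 alternatives, among them leaving out C1 replicate 1, 2 or 4 or C2 replicate 2 or 3. Without C1 replicate 4 the change was 0.52 (limma, adjusted p = 0.0162). The other probe of the gene rose by 0.75 (adjusted p = 0.000132) with groups that did not overlap. The read-through gene Tnfsf12-Tnfsf13, which shares sequence with Tnfsf12, was not called (0.26, adjusted p = 0.369).

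The RANKL gene Tnfsf11 and the receptor gene Tnfrsf19, whose product TROY signals in epithelial and neural progenitors, were well above background on all 5 arrays of NC1 and of C1 and on none of C2 with their probes in the deposited table. The theca and stroma markers Lum and Pdgfra and the oocyte marker Zp2 had the same pattern. The theca and stroma markers Col1a1, Col1a2, Dcn, Acta2 and Cyp17a1 were above background on all 5 C2 arrays and Col3a1 on 3. Of all gene probes on the array, 0.733% were above background on every C1 array and no C2 array. For NC1 against C2 this share was 1.12%. For Tnfsf11, the 5 NC1 arrays read -3.69, -3.61, -1.81, -3.01 and -3.81, the 5 C1 arrays -1.19, -2.55, -2.14, -1.94 and -1.86, and the 5 C2 arrays -6.52, -5.76, -4.59, -5.94 and -6.31. Its C1 mean was at least 7.24-fold above the C2 background bound, or at least 3.23-fold with normexp, and the NC1 mean at least 3.04-fold (1.95-fold with normexp). Tnfrsf19 measured -1.76, -2.19, -2.52, -3.22 and -2.94 at NC1, -2.59, -2.92, -2.42, -2.56 and -2.36 at C1 and -6.27, -6.17, -6.34, -5.53 and -4.46 at C2. For this gene the bounds were at least 4.63-fold at C1 (2.66-fold with normexp) and at least 4.78-fold at NC1 (2.72-fold with normexp). A second Tnfrsf19 probe, outside the table, was above background on no NC1 or C1 array and on 1 C2 array, at -6.27 to -3.65 over all arrays. The gene of the RANKL receptor, Tnfrsf11a, lay near background at all 3 stages, at a mean of -3.78, -3.80 and -3.77.

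At NC1 Tnfrsf1b stood at -1.67, -1.35, -1.15, -1.48 and -1.40, at C1 at -1.32, -1.33, -1.37, -1.51 and -1.96, and at C2 at -2.21, -2.27, -2.16, -2.22 and -2.15. Tnfrsf1b, which encodes the TNF receptor without a death domain, fell by 0.70 ± 0.13 from C1 to C2 (adjusted p = 0.00016), its C2 arrays lying below all others. The call was lost with the scaling by the median over all gene probes (-0.39, adjusted p = 0.0901), by the spike-in probes and in the deposited table. None of the 4 death domain receptor genes was called by limma from C1 to C2, beside 47.6% of all valid probes. Of the 4, 1 had an unadjusted p under 0.05. Fas differed by 0.03 and Tnfrsf25 by 0.65 (adjusted p = 0.0529), which was called with the scaling by the median over all gene probes (0.96, adjusted p = 0.00759) and in the deposited table (0.96, adjusted p = 0.00764), and Tnfrsf1a gave -0.32 on 1 probe and 0.30 on the other, neither called. The TNF gene itself was not above background on any array. Tnfrsf4, a costimulatory receptor of T cells, differed by -0.20.

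In the survival group, 3 of 4 genes were called, beside 47.6% of all valid probes, and not in the same direction. The log2 levels of Bcl2 were -1.14, -1.18, -1.91, -1.35 and -1.52 at NC1, -1.18, -1.0, -1.62, -0.87 and -1.20 at C1, and -3.19, -3.40, -3.38, -3.03 and -3.05 at C2. The 5 C2 arrays lay below all others. Bcl2, the founding member, whose product holds BAX and BAK in check, fell by 2.04 ± 0.16 from C1 to C2 (adjusted p = 1.74e-08), to 0.244 of its C1 level. The genes of 2 other survival proteins, Bcl2l2 and Mcl1, rose.

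Across replicates, Bcl2l2 gave -0.45, -0.61, -0.52, -0.66 and -0.65 at NC1, -0.46, -0.52, -0.28, -0.18 and -0.37 at C1 and 0.70, 0.69, 0.89, 0.87 and 0.93 at C2. The arrays placed Mcl1 at 2.14, 2.21, 2.14, 1.93 and 2.01 in NC1 cells, 2.29, 1.99, 2.05, 2.15 and 2.06 in C1 cells and 3.10, 3.02, 3.09, 3.55 and 3.25 in C2 cells. For each gene every C2 array exceeded every array of the earlier stages. Bcl2l2, which encodes BCL-W, rose by 1.18 ± 0.10 (adjusted p = 2.27e-08). Mcl1, whose short-lived product neutralizes several BH3-only proteins, rose by 1.1 ± 0.11 (adjusted p = 3e-07), and its other probe rose by 1.34 (adjusted p = 1.27e-06). Bcl2l1, which encodes BCL-XL, did not pass the test, with means of 1.84 at C1 and 1.94 at C2.

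**Figure D3:**
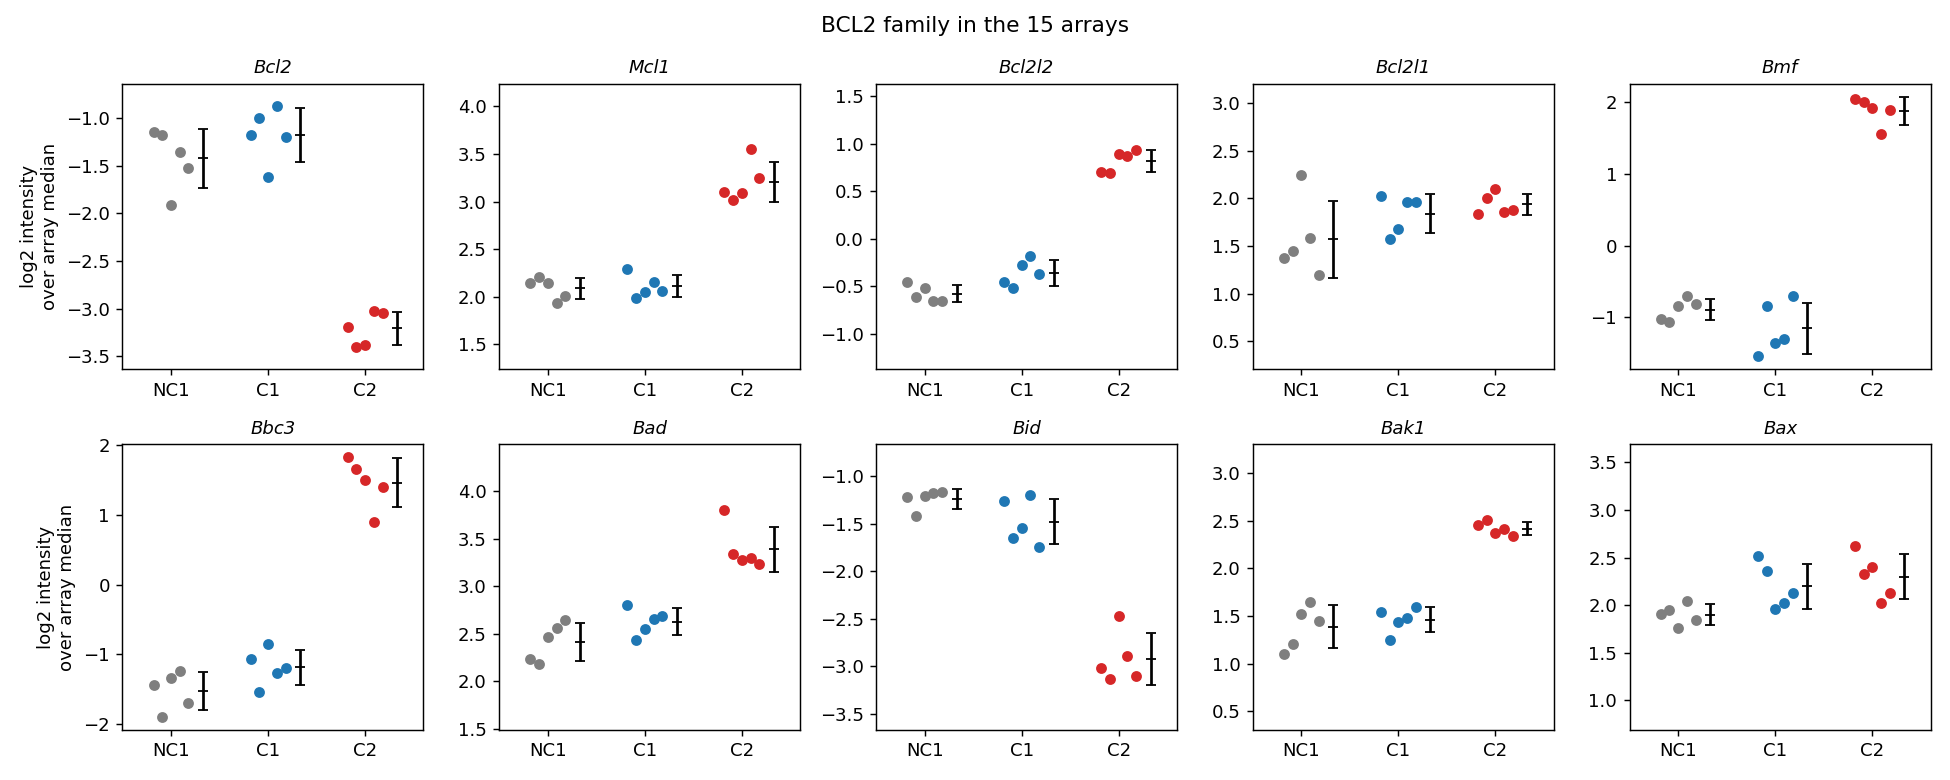
Log2 intensity over the array median (y axis) of 10 BCL2 family genes in each of the 15 arrays, by stage (x axis), with the mean and SD beside the points. Bmf, Bbc3, Bad, Bak1, Mcl1 and Bcl2l2 are higher at C2 than in every C1 array, Bcl2 and Bid are lower, and Bax and Bcl2l1 overlap between C1 and C2.

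All 4 valid BH3-only genes were called, 3 of them higher at C2, beside 47.6% of all valid probes called and 25.4% called higher. For Bmf, the 5 NC1 arrays read -1.02, -1.07, -0.85, -0.71 and -0.82, the 5 C1 arrays -1.54, -0.85, -1.36, -1.30 and -0.71, and the 5 C2 arrays 2.05, 2.00, 1.92, 1.55 and 1.89. Bbc3 measured -1.43, -1.89, -1.34, -1.23 and -1.70 at NC1, -1.06, -1.53, -0.85, -1.27 and -1.20 at C1 and 1.82, 1.66, 1.50, 0.90 and 1.39 at C2. In both, the C2 arrays stood apart from all others, and NC1 and C1 overlapped. Bmf, a sensor of cytoskeletal stress and loss of attachment, had the highest change of the 35 valid members from C1 to C2, 3.03 ± 0.15 (adjusted p = 1.15e-10), or 8.2-fold. Bbc3, which encodes PUMA, a p53 target that binds all survival members, rose by 2.63 ± 0.17 (adjusted p = 2.51e-09), or 6.21-fold. These are the genes whose promoters are printed above, the first without and the other with NF-κB letters.

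At NC1 Bad stood at 2.23, 2.18, 2.46, 2.56 and 2.64, at C1 at 2.80, 2.43, 2.55, 2.65 and 2.69, and at C2 at 3.80, 3.34, 3.27, 3.29 and 3.23. The log2 levels of Bid were -1.22, -1.42, -1.21, -1.18 and -1.17 at NC1, -1.26, -1.65, -1.54, -1.20 and -1.74 at C1, and -3.02, -3.13, -2.47, -2.89 and -3.10 at C2. The C2 arrays were the highest for Bad and the lowest for Bid. Bad, a sensor held inactive by phosphorylation, rose by 0.76 ± 0.13 (adjusted p = 8e-05), and its other probe by 0.87 (adjusted p = 0.000337). Bid, which caspase-8 cleaves to link death receptors to mitochondria, fell by 1.44 ± 0.14 (adjusted p = 1.55e-07). Bcl2l11, which encodes BIM, was dim, above background on 5, 3 and 5 arrays, with means of -4.06, -4.28 and -3.65. Its C1 and C2 groups overlapped. In the limma fit over probes seen in at least 1 stage, which called 48.6% of them, Bcl2l11 rose by 0.63 ± 0.17 (adjusted p = 0.00444).

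Of the pore-forming effectors, Bak1 rose and Bax did not pass the test. Across replicates, Bak1 gave 1.1, 1.21, 1.52, 1.65 and 1.45 at NC1, 1.54, 1.25, 1.44, 1.48 and 1.60 at C1 and 2.46, 2.51, 2.37, 2.42 and 2.34 at C2. Its C2 arrays lay above all others, with a change of 0.96 ± 0.11 (adjusted p = 1.38e-06). Bax gave means of 1.90, 2.20 and 2.30 with groups that overlapped from C1 to C2 (0.10, adjusted p = 0.523). The arrays placed Bcl2l15 at -2.68, -3.07, -3.23, -3.01 and -3.30 in NC1 cells, -2.46, -2.65, -2.37, -3.23 and -3.15 in C1 cells and -1.59, -1.25, -1.22, -1.31 and -1.0 in C2 cells. Bcl2l15, a BCL2-like gene, was higher in every C2 array, by 1.5 ± 0.17 (adjusted p = 1.65e-06). Bcl2l12 and Bcl2l13 were not called, at -0.08 and 0.24.

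Set against Bax within each array, Bcl2 and Mcl1 moved apart at C2. Bcl2 minus Bax was -3.37 ± 0.31 (SD, n = 5) at C1 and -5.51 ± 0.36 at C2, a fall of 2.14, and Mcl1 minus Bax was -0.09 ± 0.21 at C1 and 0.90 ± 0.42 at C2, an increase of 0.99. Each gave an adjusted p of 0.0127 in the two-sided exact permutation test over 8 comparisons. From NC1 to C1 they differed by -0.05 (exact permutation, adjusted p = 0.786) and -0.28 (exact permutation, adjusted p = 0.0741), and the latter passed the threshold without NC1 replicate 4 (-0.35, exact permutation, adjusted p = 0.0317).

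**Figure D4:**
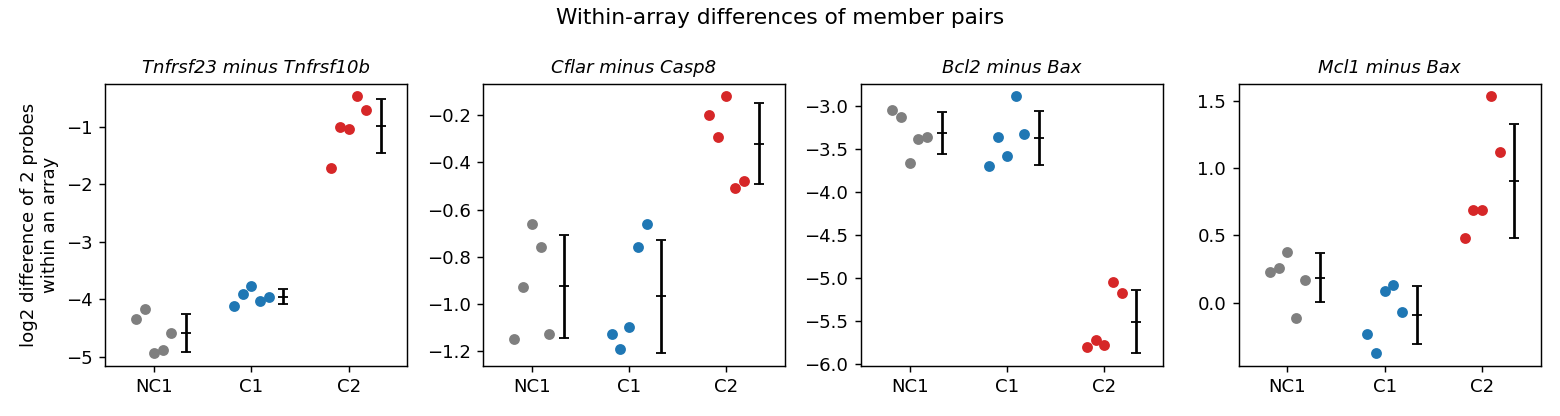
Log2 difference of 2 member probes within an array (y axis) by stage (x axis), 5 arrays a stage, with mean and SD. A value compares stages, not the levels of the 2 genes. In each of the 4 pairs the C2 arrays do not overlap the C1 arrays.

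Of the 3 initiator caspase genes, Casp9 rose and Casp2 fell, beside 25.4% and 22.2% of all valid probes. For Casp2, the 5 NC1 arrays read 3.04, 3.14, 3.13, 3.12 and 2.98, the 5 C1 arrays 2.56, 2.73, 2.77, 2.97 and 2.94, and the 5 C2 arrays 2.24, 2.35, 2.38, 2.26 and 2.39. Casp9 measured 1.13, 1.19, 1.55, 1.56 and 1.43 at NC1, 1.16, 0.86, 1.20, 1.20 and 1.29 at C1 and 1.60, 1.64, 1.61, 1.52 and 1.57 at C2. The C2 arrays were the lowest for Casp2, and for Casp9 they lay above the C1 arrays and overlapped NC1. Casp2, an initiator activated in its own complex, fell by 0.47 ± 0.09 (adjusted p = 0.000377), a call lost in the deposited table's scaling (-0.16, adjusted p = 0.495), by the median over all gene probes and by the spike-in probes. Casp9, the initiator of the mitochondrial arm, rose by 0.45 ± 0.11 (adjusted p = 0.0021), and this call was lost by the spike-in probes (0.30, adjusted p = 0.454). Casp8, the initiator below death receptors, differed by 0.02 ± 0.16 (adjusted p = 0.936).

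Casp6, a caspase of the execution phase, differed by 0.23 from C1 to C2 and was not called. The inflammatory caspase gene Casp4 lay near background before ovulation, with means of -4.05 at NC1 and -3.69 at C1, and every C2 array was higher, at -2.49 to -1.70. Its probe was above background on all C1 and C2 arrays and on 3 NC1 arrays. In the fit over probes seen in at least 1 stage, which called 48.6% of them, it rose by 1.54 ± 0.41 (adjusted p = 0.00409).

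Of the 4 inhibitor genes, 2 rose, beside 25.4% of all valid probes. At NC1 Xiap stood at 1.76, 1.81, 2.22, 1.84 and 1.75, at C1 at 1.35, 1.67, 1.94, 1.70 and 1.96, and at C2 at 2.61, 2.48, 2.67, 2.61 and 2.63. The log2 levels of Cflar were -1.43, -1.14, -1.58, -1.64 and -1.48 at NC1, -1.80, -1.74, -1.37, -1.36 and -1.39 at C1, and -0.73, -1.02, -0.94, -0.74 and -0.90 at C2. All C2 arrays lay above all others for each. Xiap, whose product binds and blocks active caspases, rose by 0.88 ± 0.12 (adjusted p = 1.28e-05). Cflar, which encodes FLIP, a caspase-8 homologue without activity that competes with it at receptors, rose by 0.66 ± 0.12 (adjusted p = 0.00019), and its next probe, whose groups overlapped, by 0.50 without a call (adjusted p = 0.0222). Cflar minus Casp8, its neighbour on chromosome 1, went from -0.97 ± 0.24 (SD, n = 5) at C1 to -0.32 ± 0.17 at C2 within arrays, a difference of 0.65 (two-sided exact permutation, adjusted p = 0.0127 over 8 tests). Birc3, which encodes cIAP2, differed by 0.82 ± 0.26 (adjusted p = 0.0126) and was called in 9 of 32 alternatives, and Birc2 gave -0.24 (adjusted p = 0.058).

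Compared with NC1, 18 of the 35 members were called at C2 (51.4%, beside 51.5% of all valid probes), and 16 of them were also called against C1. Of these 18, 13 were higher and 5 lower, where 26.5% of all valid probes were higher and 24.9% lower. The F-test over the 3 stages called 20 of 35, beside 51.5% of all valid probes. These comparisons share arrays with those above.

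Of the 12 valid genes of the NF-κB pathway, through which TNF receptors signal, 10 were called higher from C1 to C2, beside 25.4% of all valid probes. None was called lower, also at an unadjusted p under 0.05 in limma, where 22.2% of all valid probes were called lower. The median change was 1.12 beside 0.02 over all valid probes. The list holds inhibitors as well as activators of the pathway. The inhibitor genes Nfkbia (1.13), Nfkbib (1.105), Nfkbie (0.76) and Tnfaip3 (1.025) were among those called higher, so the count gives no direction of pathway activity. Leaving out single arrays, or C2 replicates 4 and 5 together, gave 9 to 11 called higher, with 9 without C1 replicate 4. The highest were Map3k14, the kinase NIK of the non-canonical arm (2.81 ± 0.16, adjusted p = 5.52e-10), and the non-canonical subunit gene Nfkb2 (2.20 ± 0.12, adjusted p = 2.96e-10), followed by its partner Relb at 2.02. Nfkb1 (1.64, adjusted p = 0.0156) and Chuk (0.08) were not called. In C1 replicate 1 Nfkb1 read -6.96 against -3.49 to -3.02 in the other C1 arrays, and without it the rise was 0.90 ± 0.15 and called (adjusted p = 0.000133). Rel was not above background on any array. In single arrays Map3k14 lay between -1.95 and -1.46 at C1 and between 0.72 and 1.61 at C2.

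Of the 14 receptor adaptor genes, 5 rose and 2 fell, beside 25.4% and 22.2% of all valid probes. Leaving out C1 replicate 4 gave 4 and 2, beside 24.3% and 21.3%. Ripk1, the kinase at the TNF receptor complex, rose by 1.38 and the deubiquitinase gene Cyld by 1.07, whereas Traf5 fell by 0.96 and Traf6 by 0.64. Fadd differed by -0.22 (adjusted p = 0.116). Of the 14 genes of the mitochondrial arm, 4 rose and 6 fell, with a median of -0.26, beside 25.4% and 22.2% of all valid probes. Leaving out C2 replicates 4 and 5 gave 4 that rose and 3 that fell, beside 22.4% and 19.2%. Leaving out C1 replicate 4 gave 4 and 4, beside 24.3% and 21.3%. Dffa, the inhibitor of the apoptotic nuclease, rose by 1.09 and Apaf1, the scaffold of the caspase-9 platform, by 0.72, whereas Birc5, an inhibitor family gene of mitosis, fell by 1.21 and Diablo, which displaces XIAP, by 1.05. Of the 12 genes of the p53 list, 4 rose and 2 fell, beside the same 25.4% and 22.2%. Leaving out single arrays gave 4 or 5 that rose and 1 or 2 that fell, with 5 and 1 without C1 replicate 4. Cdkn1a, the cell cycle inhibitor p21, rose in both steps, by 1.28 ± 0.15 (adjusted p = 4.58e-05) and by 3.45 ± 0.15 (adjusted p = 1.97e-11), and Gadd45a rose by 2.20, while Perp, a p53 target of cell junctions, fell by 4.05 and Sesn1 by 0.50. The fall of Sesn1 was near the threshold (limma, adjusted p = 0.00855), with groups that overlapped. Among TNF family genes with other names, 3 of 13 were valid. None of the 3 was called by limma from C1 to C2, beside 47.6% of all valid probes, and 1 was lower at an unadjusted p under 0.05.

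**Figure D5:**
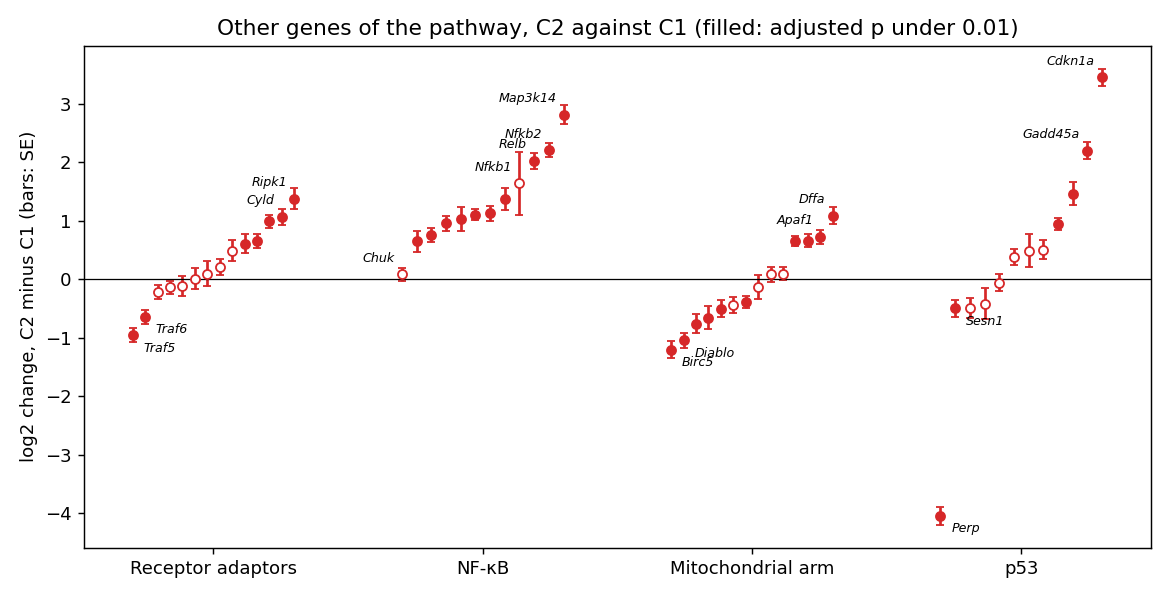
Log2 change from C1 to C2 (y axis, with the SE of the limma fit) of each valid gene of 4 pathway lists (x axis), ordered within each list by its change. Filled points are called at an adjusted p under 0.01. In the NF-κB list 10 of 12 genes are filled and above 0, where 25.4% of all valid probes were called higher. The p53 list runs from -4.05 for Perp to 3.45 for Cdkn1a.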

How the data were processed

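Cumulus cell RNA was labelled with Cy3 and hybridized to Agilent one-color oligonucleotide arrays. The authors deposited the Feature Extraction output (version 10.7.1.1 per the file headers, 10.5.1.1 in the submitters' processing notes) with a background-subtracted intensity per spot, and a normalized log2 table that covers 20855 gene probes and 25 control rows. Each of its columns is the log2 of the scanner intensity shifted by a fixed amount (the shift varied over probes with an SD of 0.00742 or less). That table defined the members and served as an alternative. Here, spots of a probe were averaged, control and outlier-flagged spots were left out, log2 was taken and the median over valid probes was subtracted from each array. Following the study's methods, probes had to be marked well above background on 80% or more of each stage's arrays to be valid. This left 17324 of 39429, with 20 missing values. No spot was saturated. Probes were named through RefSeq accessions (26049 probes) or the table's symbols (2776 probes).

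Stages were compared with limma 3.58.1 in R 4.3.3, in 1 model over the 15 arrays with Benjamini-Hochberg adjustment at 0.01, two-sided. Member pairs were compared within arrays by exact permutation, adjusted at 0.05. Normexp, an alternative, used the median spot signal and median background with an offset of 50. The fit was tested on simulated data. The number of arrays limits the precision. The members, roles and gene lists were chosen with earlier results of these data known. Of the valid members, 2 are counted in the totals but are otherwise not reported here. Named members are the TRAIL receptors, the called members of each role and those above background on every array at NC1 or C1 but on no C2 array, and pathway lists are given by counts and their 2 highest and 2 lowest changes. Genes beyond these, such as Tnfrsf9 or Ltb, were added after their values were seen. Alternatives covered scaling, background, the filter on dim probes, the model, thresholds, blocks and single arrays left out, and, added after seeing the data, C2 replicates 4 and 5 left out together.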

Additional observations from a re-analysis of the deposited data

Results flagged for a closer look

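In 8 of 123 member and stage groups of 5 arrays, 1 array lay apart from the others by more than Dixon's critical value, where chance flags about 5% of groups. On the log2 scale, Bad read 3.80 in C2 replicate 1 and 3.23 to 3.34 in the other C2 arrays, and Bid read -1.42 in NC1 replicate 2 and -1.22 to -1.17 in the others. Tnfrsf25 read -1.54 in NC1 replicate 1 against -2.63 to -2.42. In NC1 replicate 3, Birc2 read -0.30 against 0.09 to 0.17 and Xiap 2.22 against 1.75 to 1.84. Tnfsf10 read -1.84 in C1 replicate 1 against -1.11 to -0.85. Tnfsf12-Tnfsf13 read -2.51 in C1 replicate 3 against -2.02 to -1.87, and -0.68 in C2 replicate 2 against -2.22 to -1.98.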

How the results depend on the processing

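Across 32 alternatives to each comparison, no called member changed direction, and 10 of the 18 members called from C1 to C2 kept their call in all of them. The count for NC1 to C1 went from 1 to 0 with scaling by the median over all gene probes, by the spike-in probes or in the deposited table, and to 2 at an adjusted p of 0.05. In limma under these 3 scalings, 2, 3 and 2 members had an unadjusted p under 0.05, each higher at C1. Of all valid probes, these settings called 1.56%, 1.58%, 1.57% and 5.03%. From C1 to C2 it was 10 with the spike-in scaling and 10 when at least a 2-fold change was asked for, beside 25.4% and 21.3% of all valid probes. For the F-test it was 11 and 13 under these settings, beside 29.6% and 26.7%. Leaving out C2 replicates 4 and 5 together, chosen after seeing the data, gave 1, 18 and 20 calls for C1 minus NC1, C2 minus C1 and C2 minus NC1, and 19 for the F-test. Beside these stood 2.48%, 41.6%, 45.4% and 44.2% of all valid probes. Leaving out single arrays gave 1 to 1, 17 to 19 and 18 to 20 calls for C1 minus NC1, C2 minus C1 and C2 minus NC1, and 16 to 20 for the F-test. The shares of all valid probes were then 1.81% to 2.69%, 44.1% to 47.7%, 47.7% to 51.9% and 47.2% to 51.5%. The within-array rise of Tnfrsf23 over Tnfrsf10b from NC1 to C1 was 0.48 with normexp, with an exact permutation adjusted p of 0.159. Without single arrays the within-array differences from NC1 to C1 ranged from 0.55 to 0.74 for Tnfrsf23 minus Tnfrsf10b, from -0.12 to 0.02 for Cflar minus Casp8, from -0.17 to 0.03 for Bcl2 minus Bax and from -0.35 to -0.21 for Mcl1 minus Bax, and the value of -0.35, without NC1 replicate 4, passed the threshold. From C1 to C2 they ranged from 2.83 to 3.14, 0.59 to 0.72, -2.25 to -2.02 and 0.84 to 1.1. The cause of these moves was not tested. The median valid probe changed by 0.33 from C1 to C2 in the deposited table and by -0.13 with the spike-in probes. Deviations of arrays with the same replicate number correlated at 0.06 to 0.35 between NC1 and C1, with 3 of 5 pairs over 0.1 and 6 of 10 arrays closest to their own number, at -0.17 to 0.21 between C1 and C2 and at -0.24 to 0.00 between NC1 and C2. The numbers were not taken as pairs, since not every correlation was over 0.1. The fit with the replicate block called 1, 18, 18 and 18 members, in the order given above, beside 2.33%, 46.5%, 50.6% and 49.9% of all valid probes. Slide as a block gave 1, 20, 19 and 19, beside 1.95%, 44.8%, 48.9% and 48.4%. Dim members near background (Tnfsf10, Tnfsf11 and Tnfrsf19 at C2, Bcl2l11, Casp4 and Tnfrsf11a) are limited by signal over background.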
